A study of Microcebus murinus with 8 samples.

Results

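The microRNAs miR-10, miR-10a, miR-99a, miR-100 and miR-125a were followed in blood plasma of the grey mouse lemur, a small primate of Madagascar (Microcebus murinus). In the tables their names carry the species prefix, as mmr-miR-10, mmr-miR-10a, mmr-miR-99a, mmr-miR-100 and mmr-miR-125a. They were chosen by name, and these 5 were found among the 108 microRNAs listed in each of the 8 deposited tables. The animals, wild type by the labels, had eaten a diet based on vegetable fat (4 samples, numbered 5 to 8) or on dairy fat (4 samples, numbered 1 to 4). The labels give neither age, sex and time on the diet nor whether each sample is a different animal, and every p-value therefore rests on the spread among the 8 samples, which may be technical. By its labels the study set plasma microRNAs of the vegetable fat diet against those of the dairy fat diet. Plasma holds RNA from many cell types, so fewer cells of a type and less RNA released per cell cannot be told apart.

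A microRNA is a short RNA that guides the silencing of messenger RNAs, which it recognises mainly through the bases near its 5′ end, the seed. In vertebrates the genes of the miR-10 family lie inside the HOX gene clusters, and the family acts on HOX messenger RNAs and is expressed in endothelium. MiR-99a and miR-100 form a related family with a seed of their own, which is known in human cells for acting on the kinase mTOR. In human and mouse, miR-99a, miR-100 and miR-125a are made from clusters that also hold let-7 microRNAs. MiR-125a is a relative of lin-4, the first microRNA described in worms, and is abundant in blood-forming cells. The mature forms of miR-10a and its sister miR-10b are near-identical, and so are those of miR-99a and miR-100. Reads could therefore be shared within each of these pairs, depending on the counting, on which the sources used here are silent. The tables write miR-10 without a letter and give no arm of the hairpin, so its equation with miR-10b is not made here.

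Values are reads per 1000000 (RPM) of the listed microRNAs, so each is a share of a fixed total. The RPM values were whole multiples of a step in each table, which gave implied library totals of 1061434 to 4004131 reads in the vegetable fat samples and 1408536 to 3437717 reads in the dairy fat samples. A library total here counts the reads of the 108 listed microRNAs only, and the full depth of sequencing is not known. At these totals each of the 5 was far above the level of 3 reads, which is at most 2.83 RPM. The fewest implied reads were 198, for miR-100 in vegetable sample 7, where 49.4 RPM had a Wilson 95% interval of 43.0 to 56.8. Such intervals cover counting error only.

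Together the 5 microRNAs took 0.32% ± 0.14 of the listed reads in the vegetable fat samples and 0.37% ± 0.18 in the dairy fat samples (SD, n = 4 each). By sample this share was 0.239%, 0.384%, 0.178% and 0.481% in vegetable samples 5 to 8, against 0.59%, 0.237%, 0.221% and 0.444% in dairy samples 1 to 4. The ranges overlapped, and the highest and the lowest share, in dairy sample 1 and vegetable sample 7, came from different diets. By mean RPM over the 8 samples the 5 ranked between 36th (miR-125a) and 67th (miR-100) of the 108.

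The miR-10 family was represented by miR-10 and miR-10a at nearly equal levels. MiR-10 stood at 451, 919.9, 232 and 1145 RPM in vegetable samples 5 to 8, against 1777, 516, 522 and 862 RPM in dairy samples 1 to 4. MiR-10a stood at 619, 907, 208 and 1036 RPM in vegetable samples 5 to 8, against 1549, 456, 332 and 1019.9 RPM in dairy samples 1 to 4. For both, dairy sample 1 was highest and vegetable sample 7 lowest, and the diets overlapped. The highest value was 7.66 times the lowest for miR-10 and 7.46 times for miR-10a.

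The miR-99/100 family was represented by miR-99a and miR-100, which differed in level and in spread. MiR-99a stood at 459, 609, 405 and 717 RPM in vegetable samples 5 to 8, against 975, 317, 435 and 532 RPM in dairy samples 1 to 4. MiR-100 stood at 91.6, 219, 49.4 and 293 RPM in vegetable samples 5 to 8, against 423, 76.7, 65.2 and 200.0 RPM in dairy samples 1 to 4. Dairy sample 1 was again highest for both, and the diets again overlapped. The lowest value of miR-99a came from dairy sample 2, and that of miR-100 from vegetable sample 7. The highest value was 3.08 times the lowest for miR-99a and 8.56 times for miR-100.

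MiR-125a, the lin-4 relative, was the most abundant and the steadiest of the 5. It stood at 773, 1183, 881 and 1618 RPM in vegetable samples 5 to 8, against 1176, 1009, 855 and 1825 RPM in dairy samples 1 to 4. Dairy sample 4 was highest and vegetable sample 5 lowest, a range of 2.36 times, and the diets overlapped. On the log2(RPM + 1) scale the SD over the 8 samples was 0.44 for miR-125a, 0.51 for miR-99a, 0.91 for miR-10, 0.97 for miR-10a and 1.12 for miR-100. Tests covered 104 microRNAs, those that reached 1 RPM in 4 or more samples. Among them miR-100 had the 10th largest SD and miR-125a the 58th, and the median SD was 0.48. Counting error alone would give an SD of at most 0.10 for miR-100 and at most 0.052 for the others.

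**Figure D1:**
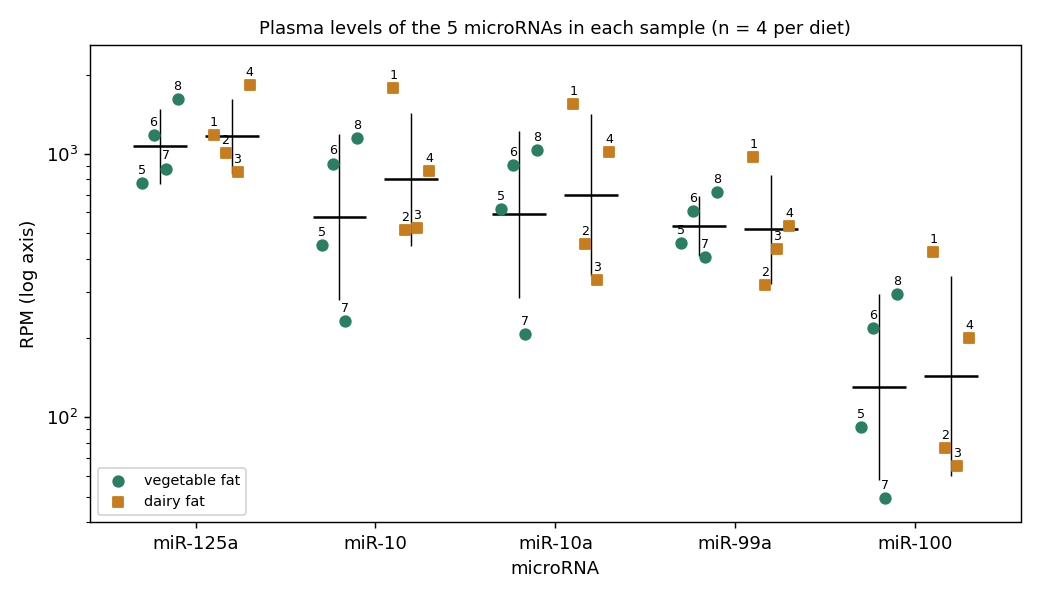
RPM (log axis) of each microRNA in every sample, vegetable fat left of dairy fat. Points carry the sample number, horizontal bars are means and vertical bars ± SD, both taken on log2(RPM + 1), n = 4 per diet. The diets overlap for each microRNA, and samples 1, 4, 6 and 8 lie above samples 2, 3, 5 and 7 throughout.

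The order of the levels was largely shared between samples. MiR-125a was the highest of the 5 in 7 of the 8 samples and miR-10 in dairy sample 1, and miR-100 was the lowest in all 8. Levels of different microRNAs are compared here as shares of reads, and differences in how well each sequence enters a library were not tested. Neighbours were compared by an exact sign-flip test of the log2 ratio over the 8 samples, whose smallest p is 0.00781, with adjustment over all 5356 pairs of tested microRNAs, of which 89.9% differed at an adjusted p of 0.05. MiR-125a exceeded miR-10 in 7 of 8 samples (mean log2 ratio of miR-10 to miR-125a −0.72 ± 0.71 SD, exact adjusted p = 0.035). MiR-10 and miR-10a did not differ beyond their spread (mean log2 ratio 0.08 ± 0.33 SD, miR-10 higher in 6 of 8, exact adjusted p = 0.529). Neither did miR-10a and miR-99a (0.29 ± 0.63, miR-10a higher in 6 of 8, exact adjusted p = 0.224). MiR-99a exceeded miR-100 in 8 of 8 samples (1.93 ± 0.69, exact adjusted p = 0.00937).

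The same 4 samples held the 4 highest values of each of the 5 microRNAs. They were vegetable samples 6 and 8 and dairy samples 1 and 4, so each diet contributed the same number. As a ratio, the gap below them was widest for miR-100, where the lowest of the 4 stood at 200.0 RPM and the highest of the other 4 at 91.6 RPM. In RPM the gap was wider for miR-10, with 862 and 522 RPM. For miR-125a these values were 1176 and 1009 RPM. This pattern was not particular to the 5 microRNAs, since 27 of the 104 tested, or 26%, had the same 4 samples on top. It was noticed in the values and is given without a test.

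Correlations over the 8 samples were computed for the 10 pairs on the log2(RPM + 1) scale, with exact permutation of the pairings and adjustment over all 5356 pairs of tested microRNAs. Pearson's r was above 0 for each of the 10 and ran from 0.49 to 0.96, against a median of 0.18 over all pairs. Of the 10 pairs 3 passed at an adjusted p of 0.05, namely the 3 pairs formed by miR-10, miR-10a and miR-100, where 2.5% of all pairs passed with a positive r. All microRNAs of a sample share a library and its total, so such points are not free of a common scale. The 4 high samples stood apart from the other 4 for miR-100, and r within either set of 4 is not given, being too few.

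MiR-10a and miR-100 had the highest r, at 0.96 (exact permutation p = 0.000322, adjusted p = 0.0332), with a Spearman's rho of 0.98 (exact permutation p = 0.000397, adjusted p = 0.0366). This was the only one of the 10 pairs past the threshold by Spearman's rho, where 0.84% of all pairs passed with a positive rho. Without the 2 samples farthest from the median of miR-10a, dairy sample 3 and vegetable sample 7, r was 0.97. MiR-10 and miR-100 had r = 0.96 (exact permutation p = 0.000595, adjusted p = 0.0371) and rho = 0.90 (exact permutation p = 0.00456, adjusted p = 0.0886). Without the 2 samples farthest from the median of miR-10, dairy sample 1 and vegetable sample 7, r was 0.95. MiR-10 and miR-10a, of 1 family, had r = 0.94 (exact permutation p = 0.00119, adjusted p = 0.0483) and rho = 0.88 (exact permutation p = 0.00724, adjusted p = 0.107). Without the same 2 samples r was 0.83 (exact permutation p = 0.075), so this relation rested in part on them.

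MiR-99a and miR-100, of the other family, had r = 0.91 (exact permutation p = 0.00161, adjusted p = 0.0517) and rho = 0.93 (exact permutation p = 0.00223, adjusted p = 0.0661), with r = 0.96 without dairy samples 1 and 2, the farthest from the median of miR-99a. MiR-99a with miR-10 and with miR-10a had r of 0.84 and 0.81 and rho of 0.88 and 0.90, with exact permutation p-values from 0.00456 to 0.0146, none past the threshold after adjustment. MiR-125a was the least like the others. Its r was 0.71 with miR-100, 0.67 with miR-10a, 0.65 with miR-10 and 0.49 with miR-99a, and its rho 0.62, 0.67, 0.67 and 0.55 in the same order. The exact permutation p-values of these 4 pairs ran from 0.0522 to 0.215 for r and from 0.0831 to 0.171 for rho. Leaving out the 2 farthest samples gave an r between 0.55 and 0.87 for them.

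Each of the 10 correlations was smaller once a linear dependence on log2 library total had been taken out of each microRNA, and 0 of the 10 pairs then passed, where 0.243% of all pairs passed with a positive r. R was then 0.93 for miR-10a and miR-100 (permutation p = 0.000521, adjusted p = 0.0555), 0.86 for miR-10 and miR-10a, and 0.85 for miR-10 and miR-100. For the other pairs it lay between 0.11, for miR-99a and miR-125a, and 0.69, for miR-99a and miR-100. With 1 sample left out r stayed between 0.86 and 0.98 for the 4 highest pairs. None of the 10 passed at 7 samples, where the test called 0 to 24 of all 5356 pairs. A positive r with an unadjusted p under 0.05 was then found for 6 or 7 of the 10, and for 649 to 1010 of all 5356 pairs.

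**Figure D2:**
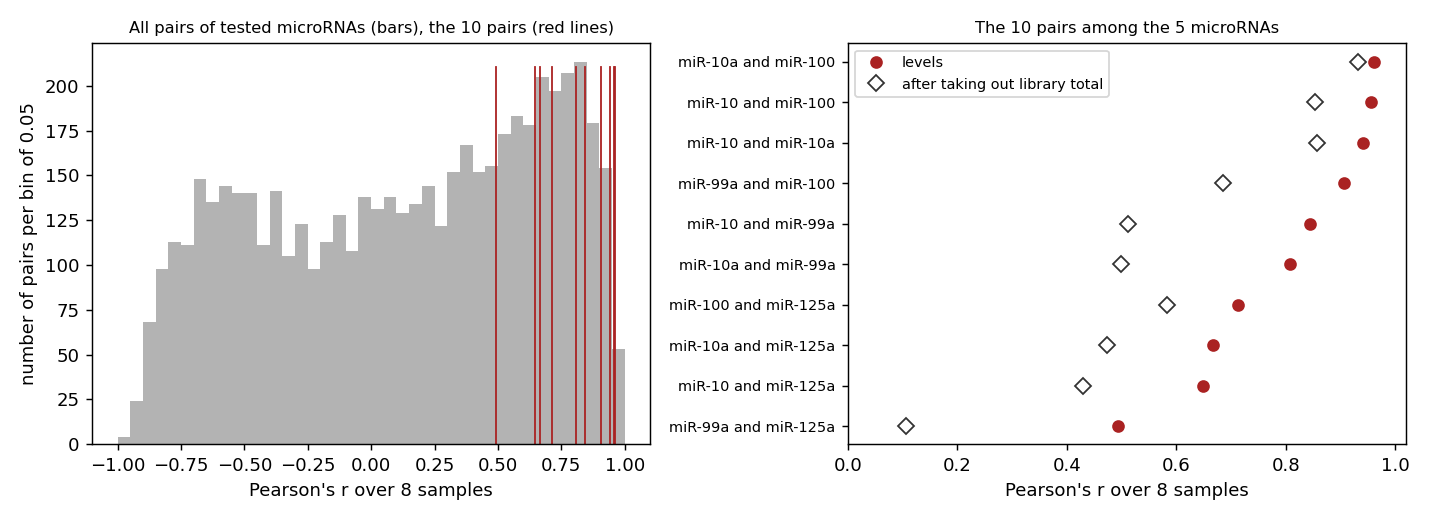
Left, the number of pairs of tested microRNAs per bin of Pearson's r over 8 samples (grey bars), with the 10 pairs of the 5 microRNAs as red lines, all between 0.49 and 0.96. Right, r for each of the 10 pairs on levels (filled) and after taking out library total (open diamonds), where miR-10a with miR-100 stays at 0.93 and miR-99a with miR-125a drops to 0.11.

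For each of the 5 the 3 other tested microRNAs with the highest Pearson's r over the 8 samples were listed, as a description and with no test. MiR-10 was followed by miR-214, miR-132 and miR-204, with r of 0.96, 0.95 and 0.93 and rho of 0.93, 0.90 and 0.95. MiR-10a was followed by miR-132, miR-214 and miR-28, with r of 0.98, 0.97 and 0.95 and rho of 0.98, 0.95 and 0.90. MiR-100 was followed by miR-214, miR-222 and miR-24, with r of 0.98, 0.96 and 0.95 and rho of 0.98 for each. MiR-214, a microRNA of mesenchymal cells, thus stood near miR-10, miR-10a and miR-100, at a mean of only 33.4 RPM over the 8 samples. MiR-132, on the neuron list used below, stood near miR-10 and miR-10a, at a mean of 16.2 RPM. It was a small part of that list, which summed to between 2779 and 4694 RPM. The sum of the list was lowest in dairy sample 1, where miR-10 and miR-10a were highest. Of the nearest of miR-100, miR-222 is on the endothelial list and miR-24 on the platelet list.

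MiR-99a shared miR-222 with miR-100, its family member, among its nearest. It was followed by miR-532, miR-345 and miR-222, with r of 0.97, 0.96 and 0.92 and rho of 1, 0.98 and 0.90. MiR-125a was followed by miR-136 and miR-411a, which lie in the imprinted DLK1-DIO3 cluster in human and mouse, and by miR-181a, with r of 0.91, 0.91 and 0.90 and rho of 0.88, 0.88 and 0.93. Without the 2 samples farthest from the median of the microRNA followed, r of these 15 neighbours lay between 0.79 and 0.99.

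Of the let-7 and miR-125 microRNAs that share the human clusters, let-7a and let-7c were analysed here, with let-7f, miR-98 and the HOX-cluster miR-196b. Let-7c, which shares a cluster with miR-99a in human and mouse, stood at 12620.1, 14678, 8115 and 15710.8 RPM in vegetable samples 5 to 8, against 16918, 12103, 9119 and 12475 RPM in dairy samples 1 to 4. Like miR-10 and miR-10a it was highest in dairy sample 1 and lowest in vegetable sample 7. It did not track miR-99a most closely: r was 0.74 with miR-99a (exact permutation p = 0.0359, adjusted p = 0.162; rho 0.90, adjusted p = 0.0886), 0.95 with miR-10a (exact permutation adjusted p = 0.0325; rho 0.93, adjusted p = 0.0661) and 0.91 with miR-100 (exact permutation adjusted p = 0.0367; rho 0.98, adjusted p = 0.0366). With miR-10 r was 0.89 (exact permutation adjusted p = 0.0536) and with miR-125a 0.54 (exact permutation adjusted p = 0.361). Without the 2 farthest samples r with let-7c was 0.90 for miR-99a, 0.81 for miR-10a, 0.84 for miR-100, 0.71 for miR-10 and 0.68 for miR-125a, with a different pair of samples left out for some. MiR-99a then had the highest of these values instead of miR-10a, and the differences between them were not tested.

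Let-7a, a product of the miR-100 cluster and of other loci, had r between −0.16 and 0.19 with the 5 microRNAs, with exact permutation p-values from 0.639 to 0.823, and between −0.22 and 0.65 (miR-125a) without the 2 farthest samples. MiR-196b, which lies in a HOX cluster as the miR-10 family does, had r between −0.36 and 0.29, with exact permutation p-values from 0.386 to 0.901. Without the 2 farthest samples its r was 0.74 with miR-99a, against −0.36 with all 8, and −0.52 with miR-10a, against −0.08, so these values rested on few samples. Let-7f had r from −0.45 to −0.04 and miR-98 from −0.39 to −0.18, and none passed the threshold.

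Ratios within a library were taken of RPM + 1, and each ratio printed here is on that scale, which puts the high ratios to miR-100 slightly below those of the RPM values. The ratio of miR-10 to miR-10a was 0.73, 1.01, 1.12 and 1.1 in vegetable samples 5 to 8, against 1.15, 1.13, 1.57 and 0.845 in dairy samples 1 to 4. It stayed close to 1 in vegetable samples 6 to 8 and dairy samples 1 and 2 and reached its lowest and highest values in vegetable sample 5 and dairy sample 3. Its SD on the log2 scale, 0.33, was as low in 7.19% of all pairs. The log2 ratio averaged −0.03 ± 0.29 on vegetable fat and 0.20 ± 0.37 on dairy fat (SD, n = 4 each; exact permutation p = 0.314, adjusted p = 1).

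The ratio of miR-99a to miR-100 was far less steady. It was 4.97, 2.78, 8.05 and 2.44 in vegetable samples 5 to 8, against 2.3, 4.09, 6.59 and 2.65 in dairy samples 1 to 4. The 4 lowest ratios came from samples 1, 4, 6 and 8, in which both microRNAs were high. The SD of the log2 ratio, 0.69, was close to the median over all pairs, 0.75. The log2 ratio averaged 2.02 ± 0.80 on vegetable fat and 1.84 ± 0.68 on dairy fat (SD, n = 4 each; exact permutation p = 0.714, adjusted p = 1).

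Across families, miR-10 and miR-100 kept a steadier ratio than miR-99a and miR-100 did. MiR-10a and miR-100 did so too, with an SD of 0.33, as low in 7.17% of all pairs. That SD matched the one of miR-10 to miR-10a, so a steady ratio was not particular to 1 family. The log2 ratio of miR-10 to miR-100 averaged 2.13 ± 0.15 on vegetable fat and 2.47 ± 0.46 on dairy fat (SD, n = 4 each; exact permutation p = 0.286, adjusted p = 1), with an SD of 0.36 over the 8 samples. The widest ratio was that of miR-100 to miR-125a, with an SD of 0.86 and a range from 0.0572 in vegetable sample 7 to 0.36 in dairy sample 1. Its log2 value averaged −3.02 ± 0.79 on vegetable fat and −3.01 ± 1.05 on dairy fat (SD, n = 4 each; exact permutation p = 1). Of the 10 ratios 0 differed between the diets by the exact permutation test, by adjusted or by unadjusted p, and 0% of all 5356 ratios passed after adjustment and 0.747% before it. The smallest unadjusted p was 0.171, for miR-10 to miR-99a, and the smallest the test allows is 0.0286. The steadiness of the ratios was compared by their SDs, with no test between them.

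**Figure D3:**
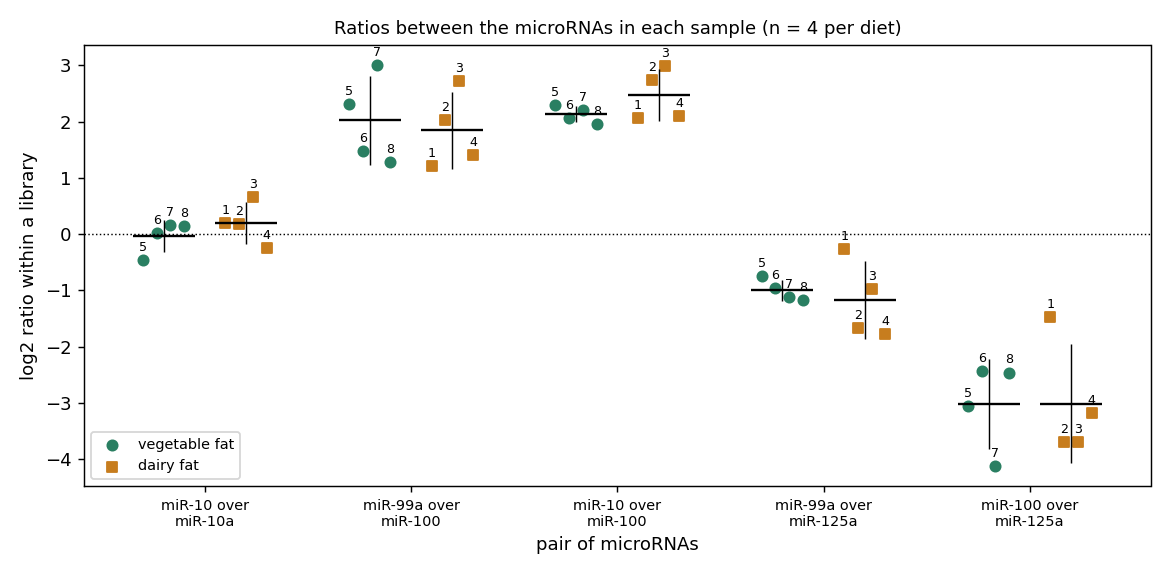
Log2 ratio within a library for 5 pairs of the microRNAs, vegetable fat left of dairy fat, with sample numbers, means (horizontal bars) and ± SD (vertical bars), n = 4 per diet. The ratio of miR-10 to miR-10a stays near 0, while that of miR-99a to miR-100 runs from 1.20 to 3.01 and that of miR-100 to miR-125a from −4.13 to −1.47.

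No difference between the diets passed the test for any of the 5 microRNAs, and the intervals were wide. By limma on log2(RPM + 1), with trended and robust variance and Benjamini-Hochberg adjustment over the 104 tested, 0 of the 5 had an adjusted p under 0.05 and 0 an unadjusted p under 0.05. Over all 104 the share called was 0% by either rule, and the diets failed to overlap for 0% of them. MiR-10 averaged 687 ± 419 RPM on vegetable fat and 919 ± 594 RPM on dairy fat (SD, n = 4 each), with a log2 difference of −0.48 (95% interval −1.73 to 0.78, limma adjusted p = 0.999). MiR-10a averaged 693 ± 367 RPM on vegetable fat and 839 ± 560.2 RPM on dairy fat, with a difference of −0.24 (−1.60 to 1.11).

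MiR-99a averaged 548 ± 142 RPM on vegetable fat and 565 ± 288 RPM on dairy fat, with a log2 difference of 0.05 (−0.79 to 0.88). MiR-100 averaged 163 ± 113 RPM on vegetable fat and 191 ± 166 RPM on dairy fat, with a difference of −0.13 (−1.71 to 1.44). MiR-125a averaged 1114 ± 378 RPM on vegetable fat and 1217 ± 427 RPM on dairy fat, with a difference of −0.13 (−0.87 to 0.61), the narrowest interval of the 5. For each of the 5, 2 of the 4 vegetable fat samples exceeded the median of the dairy fat samples and 0 exceeded all of them. Each estimate lay below the median of all tested microRNAs, 0.07, and the median of the 5 was −0.13.

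The estimate of miR-10 was below 0 with any 1 sample left out and under each scaling, while those of the other 4 changed sign with 1 sample or another left out. Without vegetable sample 7 the estimate was 0.26 for miR-10a, 0.33 for miR-100 and −0.04 for miR-10, and without dairy sample 1 it was 0.14 for miR-10a and 0.38 for miR-100. Upper quartile scaling moved the median of all microRNAs to −0.17 and the estimate of miR-10 to −0.71, and it turned the sign of miR-99a (−0.19). MiR-10a, miR-100 and miR-125a kept their sign under each scaling. With library total as a covariate the estimate of miR-10 was −0.74 (95% interval −1.38 to −0.098, limma adjusted p = 0.930), and those of the others were −0.49 for miR-10a, −0.46 for miR-100, −0.21 for miR-125a and −0.09 for miR-99a. In that fit 0 of the 104 were called after adjustment and 4 had an unadjusted p under 0.05, miR-10 among them.

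**Figure D4:**
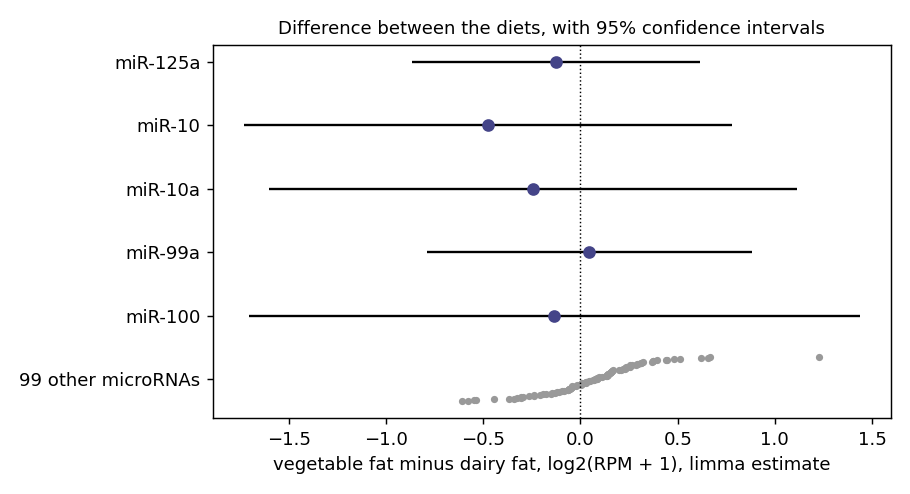
Limma estimates of vegetable fat minus dairy fat on log2(RPM + 1) for the 5 microRNAs with 95% confidence intervals, and the estimates of the 99 other tested microRNAs as grey points in rank order. Each interval includes 0, and the estimates run from −0.48 for miR-10 to 0.05 for miR-99a.

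The level of miR-10, miR-10a, miR-99a and miR-100 was lower in libraries with more reads of the listed microRNAs. In a limma fit on log2 library total, without diet, 4 of the 5 fell in larger libraries, where 31.7% of the 104 tested fell and 1.92% rose. The slope for each doubling of the total was −1.38 for miR-100 (95% interval −2.01 to −0.75, limma adjusted p = 0.00625), −1.08 for miR-10 (−1.64 to −0.53, adjusted p = 0.00997) and −1.04 for miR-10a (−1.68 to −0.41, adjusted p = 0.0178). For miR-99a it was −0.60 (−1.04 to −0.16, adjusted p = 0.0354) and for miR-125a −0.34 (−0.81 to 0.13, adjusted p = 0.262), which did not pass. The median slope was −0.29 over all tested microRNAs and −1.04 over the 5. RPM has this total as its denominator, and a slope of −1 is what the same number of reads in every library would give. That value lies inside the intervals of miR-10, miR-10a, miR-100 and miR-99a, for miR-99a near the lower end, and outside that of miR-125a. The intervals are wide, and a slope near −1 does not mean that the reads were equal. The implied reads did differ between libraries. Those of miR-10 ran from 929 in vegetable sample 7, which had the largest total, to 2766 in dairy sample 4. They ran from 832 to 3274 for miR-10a, 761 to 1708 for miR-99a, 198 to 642 for miR-100 and 1657 to 5860 for miR-125a. The cause of this spread was not tested.

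The libraries were not spread evenly. Vegetable samples 6 and 8 and dairy sample 1 had totals between 1061434 and 1855670 reads, the other 5 had totals between 3103305 and 4004131 reads, and slopes within either set were not fitted. Dairy sample 4 had 200.0 RPM of miR-100 at a total of 3210200 reads, above the 49.4 to 91.6 RPM of the 4 other large libraries. Scaling moved the slopes: the median over all tested microRNAs was −0.09 with upper quartile scaling and 0.05 with a trimmed mean of log ratios. Of all tested, 15 fell and 9 rose with upper quartile scaling and 6 fell and 5 rose with the trimmed mean, against 33 and 2 as deposited. With the trimmed mean the slope was −1.03 for miR-100 (limma adjusted p = 0.0493), −0.73 for miR-10 (adjusted p = 0.0528), −0.69 for miR-10a, −0.25 for miR-99a and 0.0099 for miR-125a. Without dairy sample 1 the slopes of miR-100 and miR-10 passed (−1.20 and −0.90), and those of miR-10a (−0.90, adjusted p = 0.0894) and miR-99a (−0.46, adjusted p = 0.185) did not. The call of miR-99a was also lost without dairy samples 2 or 3 or vegetable samples 5, 6 or 7, at adjusted p from 0.0559 to 0.0659.

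**Figure D5:**
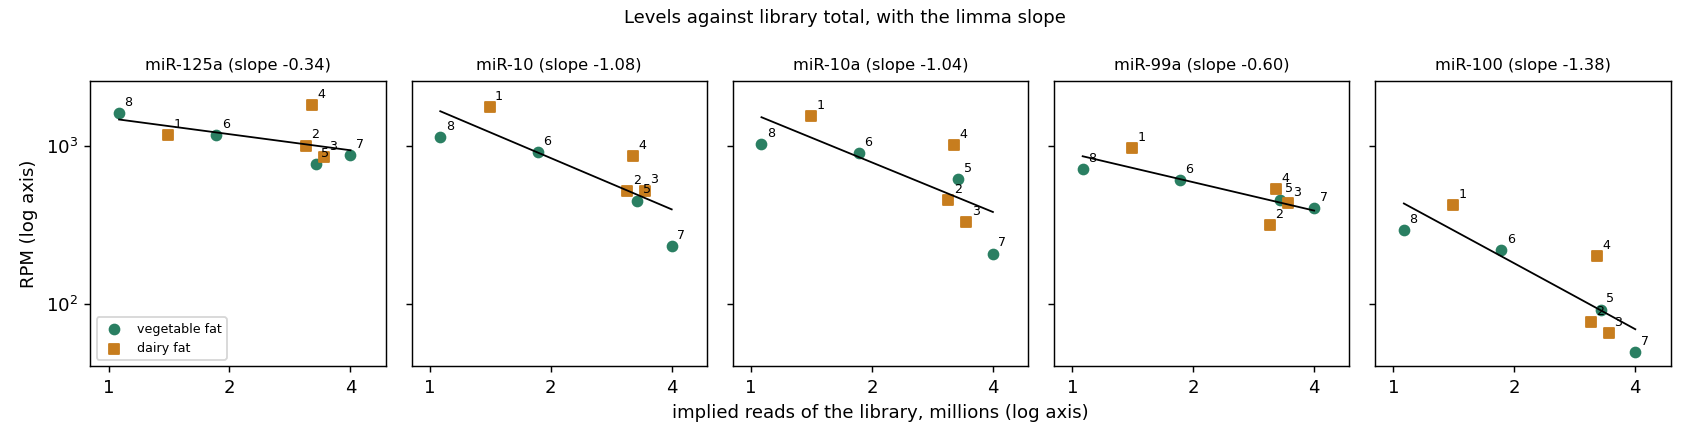
RPM of each microRNA against the implied reads of all listed microRNAs in its library, in units of 1000000 (both axes log). Points carry sample numbers, and the line is the limma slope. The slope is steepest for miR-100 (−1.38) and shallowest for miR-125a (−0.34), and no library lies between 1855670 and 3103305 reads.

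Marker microRNAs of cells that release RNA into plasma were summed for each sample. The endothelial list held 7 names, all listed, of which miR-10a, miR-99a, miR-100 and miR-125a are 4. The other 3, miR-126, miR-221 and miR-222, summed to 3739, 4970.2, 2345 and 12171 RPM in vegetable samples 5 to 8, against 9112, 6678, 2518 and 7844 RPM in dairy samples 1 to 4. MiR-126 is also on the platelet list, so the sums of these lists are not separate. MiR-222 averaged only 74.9 RPM over the 8 samples. The smooth muscle and mesenchyme list had 2 of 4 names listed, miR-145 and miR-214. The list names miR-199a, and a microRNA given as miR-199, without the letter, was therefore not summed. The sum of miR-145 and miR-214 was 405, 1266, 115 and 1403 RPM in vegetable samples 5 to 8, against 1552, 589, 154 and 637 RPM in dairy samples 1 to 4. This sum was highest in the same 4 samples as the 5 microRNAs were, and the endothelial sum was highest in vegetable sample 8 and lowest in vegetable sample 7. Their part in the levels of the 5 was not tested.

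The leukocyte and platelet lists shared their extremes with miR-10, miR-10a and miR-100, as did the sum of miR-145 and miR-214. The red cell list did not. The leukocyte list (2 of 6 names listed) summed to 4026, 3572, 1138 and 2729 RPM in vegetable samples 5 to 8, against 6497, 2896, 2608 and 2713 RPM in dairy samples 1 to 4. It was highest in dairy sample 1 and lowest in vegetable sample 7, as miR-10, miR-10a and miR-100 were, and so was the platelet list. The other samples were ordered differently. The leukocyte sums of dairy sample 4 and vegetable sample 8 lay below those of dairy sample 2 and vegetable sample 5. The red cell list (3 of 6 names listed) summed to between 66592 and 117004 RPM in the vegetable fat samples and between 60689 and 98338 RPM in the dairy fat samples. Its highest sum came from vegetable sample 5 and its lowest from dairy sample 2. The platelet list (5 of 6) summed to between 153959 and 215228 RPM in the vegetable fat samples and between 166220 and 215667 RPM in the dairy fat samples. The platelet sums of dairy sample 1 and vegetable sample 5, 215667 and 215228 RPM, were nearly equal. Dairy sample 4, high for each of the 5, had the lowest platelet sum of the dairy fat samples, 166220 RPM. The part of these lists in the levels of the 5 was likewise not tested. The neuron list (3 of 5) summed to between 3136 and 4112 RPM in the vegetable fat samples and between 2779 and 4694 RPM in the dairy fat samples. Its lowest sum came from dairy sample 1 and its highest from dairy sample 3. No listed marker was at 0 in any sample, and markers of liver and of skeletal muscle and heart are not analysed here.

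Over a wider list of microRNAs from the HOX clusters and the let-7 clusters, 12 of 19 names were tested and 0 of the 12 differed between the diets by limma, with a median estimate of −0.13. The 7 that are not among the 5 followed here had a median of 0.00. For library total 5 of the 12 fell and 0 rose, where 31.7% of all tested fell and 1.92% rose. Outside the 5 it was 1 of 7, let-7c (slope −0.44, limma adjusted p = 0.0299). The median slope of those 7 was 0.11, against −1.04 for the 5.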

How the data were processed

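Per the labels' protocols, the miRNeasy Micro kit gave the plasma RNA and the QIAseq miRNA kit the libraries. The submitters' processing notes name cutadapt 3.4. The sources used here do not give the aligner, the counting, the reference set or any use of molecular identifiers. The deposited values were read as RPM, because the 108 values of every sample add up to 1000000. Each was a whole multiple of a step (tolerance 0.01), from which library totals followed. The deposited values were not counts, and low values were too few to check the implied reads, so the planned count tests were not made. For the vegetable fat diet, headers and titles number the samples differently while naming 1 diet, and numbers here are those of the titles.

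Groups came from the titles, 4 samples each. Limma 3.58.1 (R 4.3.3) was fitted to log2(RPM + 1) of the 104 microRNAs that reached 1 RPM in 4 or more samples. Estimates were identical for miR-92a and miR-92b, for miR-103a and miR-103b, and for miR-218a and miR-218b. Each of these names was counted in the 104 and in the pairs. Ratios had exact permutation tests over 70 assignments of samples, or 256 sign flips, and correlations over 40320 pairings. Alternatives were other pseudocounts, filters, scalings and covariates and leaving out each sample. Scripts were tested on simulated data. Named are the 5 microRNAs, the 3 tested microRNAs most like each, and cluster relatives. Members, lists and tests were chosen with earlier results of these data known.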

Additional observations from a re-analysis of the deposited data

Results flagged for a closer look

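Of 36 groups of 4 samples examined, 2 held a value far from the rest, where chance gives about 1 in 20 groups, or 1.8. The log2 ratio of miR-10a to miR-99a was −0.96 in vegetable sample 7, against 0.43 to 0.57 in vegetable samples 5, 6 and 8. The library total of dairy sample 1 was 1408536 reads, against 3103305 to 3437717 in dairy samples 2 to 4.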

How the results depend on the processing

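No diet difference was called under any alternative that was run. Estimates (vegetable fat minus dairy fat) changed sign for miR-99a with upper quartile scaling (−0.19), without the 6 most abundant microRNAs (−0.047) and with library total as a covariate (−0.091). With 1 sample left out they ran from −0.80 to −0.039 for miR-10, −0.60 to 0.26 for miR-10a, −0.19 to 0.35 for miR-99a, −0.52 to 0.38 for miR-100 and −0.33 to 0.088 for miR-125a. The diet differences of log2 ratios, none of which passed, kept their sign for miR-10 to miR-10a (−0.38 to −0.078), miR-10 to miR-99a (−0.71 to −0.22) and miR-10 to miR-100 (−0.48 to −0.17). The other 7 changed sign and ran from −0.53 to 0.030 for miR-10 to miR-125a, −0.57 to 0.078 for miR-10a to miR-99a, −0.30 to 0.0050 for miR-10a to miR-100, −0.33 to 0.29 for miR-10a to miR-125a, −0.15 to 0.47 for miR-99a to miR-100, −0.029 to 0.47 for miR-99a to miR-125a and −0.24 to 0.51 for miR-100 to miR-125a.

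Of the slopes on library total, those of miR-10 and miR-100 passed under each alternative except that of miR-10 with the trimmed mean (−0.73). MiR-10a did not pass with upper quartile scaling (−0.84), with the trimmed mean (−0.69) or without the 6 most abundant (−0.95), and miR-99a did not under the same settings (−0.39, −0.25 and −0.51). The slope of miR-125a changed sign with the trimmed mean (0.0099). With 1 sample left out slopes ran from −1.47 to −0.79 for miR-10a and −0.80 to −0.46 for miR-99a. Of the 5, 2 were then called with upper quartile scaling, 1 with the trimmed mean, 2 without the 6 most abundant and 2 to 4 with 1 sample left out, against 4 as reported. Among all tested microRNAs, 15, 6 and 15 fell and 9, 5 and 2 rose under the same 3 settings, 19 to 33 fell with 1 sample left out, and 33 fell and 2 rose as reported. The number of called pairs was 6 without the 6 most abundant, 0 after taking out library total and 0 with 1 sample left out, against 3. In either direction, 535 of 4753 pairs were called without the 6 most abundant and 19 of 5356 after taking out library total, against 153 of 5356 as reported. The r of miR-99a and miR-125a was −0.0050 with the trimmed mean.

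Chosen after seeing the data were fits without vegetable samples 7 and 8, the extremes of library total, which left 2 vegetable fat samples. They gave a diet estimate of 0.10 for miR-10a, log2 ratio differences of 0.069 (miR-10a to miR-99a), 0.12 (miR-10a to miR-100), 0.39 (miR-10a to miR-125a) and 0.27 (miR-100 to miR-125a), a slope of −0.86 for miR-99a that did not pass, 17 falling microRNAs and 0 called pairs. Also added were deviations from the diet mean (5 called pairs, and 344 of all 5356) and diet as a second term for the slopes (4 of the 5 fell, and 34 of all 104). The cause of these changes was not tested. No paired analysis was possible because sample numbers differ between the diets. EdgeR and DESeq2 were not run. Depth limits miR-100 most, and 4 samples per diet limit every interval.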
